A study of Mus musculus with 4 samples.

Results

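The 8 genes examined encode transcription factors of the hepatocyte lineage: Hnf4a, Foxa1, Foxa2, Foxa3, Cebpa, Cebpb, Onecut1 and Prox1. They were taken by gene symbol from tables that list 54838 genes, each symbol matched 1 row, and all 8 were among the 12510 genes with enough counts to be tested. The cells were Hepa1-6, a mouse hepatocellular carcinoma line, grown as a group wild type for Acvr2a (NC, 2 libraries) and a group with Acvr2a knocked out (KO, 2 libraries). Acvr2a encodes a type II receptor for activin. The series describes the knockout cells as subclones, and the labels do not say whether the KO libraries come from 1 subclone or several, nor how the NC cells were derived. Nothing says that the libraries of a group came from separate cultures, so the p-values below measure the spread between these libraries, which may be technical. That spread is largely pooled over genes.

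These factors form the core of the network that sets and keeps hepatocyte identity. HNF4A is a nuclear receptor that sustains expression of many plasma protein, lipid transport and metabolic genes. The FOXA proteins are forkhead factors that open liver enhancers during development. C/EBP alpha favours the quiescent, metabolic state of hepatocytes, whereas C/EBP beta rises in the acute-phase response and in liver regeneration. ONECUT1, also called HNF6, acts in hepatocyte and bile duct development, and PROX1 is a homeobox factor needed for the growth and migration of early hepatoblasts. Several of them are known to bind each other's genes.

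The libraries held between 11597923 and 13910582 counts. Values are given as CPM, the count scaled to a common library size, with sizes adjusted by the trimmed mean of M-values. Across genes, which are not independent of each other, Pearson's r of log2 CPM was 0.989 between libraries of a group and 0.963 to 0.972 between those of different groups. RNA of the targeted gene did not separate the groups: Acvr2a was at 7.12 and 7.80 CPM in NC and at 5.69 and 7.18 CPM in KO (log2 fold change -0.21, 95% interval -0.63 to 0.21, adjusted p = 0.433). Its total covers the whole gene and shares exon positions with Orc4 on the other strand, so it does not check the knockout, and NC and KO stand for the libraries labelled so. In these bulk libraries, fewer cells of a type and less RNA per cell cannot be told apart.

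Of the 8 factors, 5 were lower in KO, Hnf4a, Foxa2, Onecut1, Foxa3 and Prox1, with log2 fold changes from -1.0 to -0.37. Cebpb and Foxa1 were higher, by 0.57 and 0.37 on the log2 scale, and Cebpa did not pass the test. A gene was called when its Benjamini-Hochberg adjusted p in edgeR's quasi-likelihood test, taken over all 12510 genes, was under 0.05. The spread used for each gene leaned on a value shared over genes, with a weight of 25.8 degrees of freedom. A small p is therefore not drawn from the gene's own libraries alone. Of all genes tested, 37.9% were called, 18.2% lower and 19.7% higher, against 7 of the 8 factors, 5 lower and 2 higher. The median log2 fold change of the 8 factors was -0.59 and that of all genes was -0.0037. The KO and NC libraries did not overlap in CPM for 8 of the 8 factors, and for 69.4% of all genes. On log2(TPM + 1) the same libraries gave 2158 called genes, of which 68% were higher, compared with 51.9% in the count fit. TPM is RSEM's measure of transcript abundance, which is scaled by gene length.

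**Figure D1:**
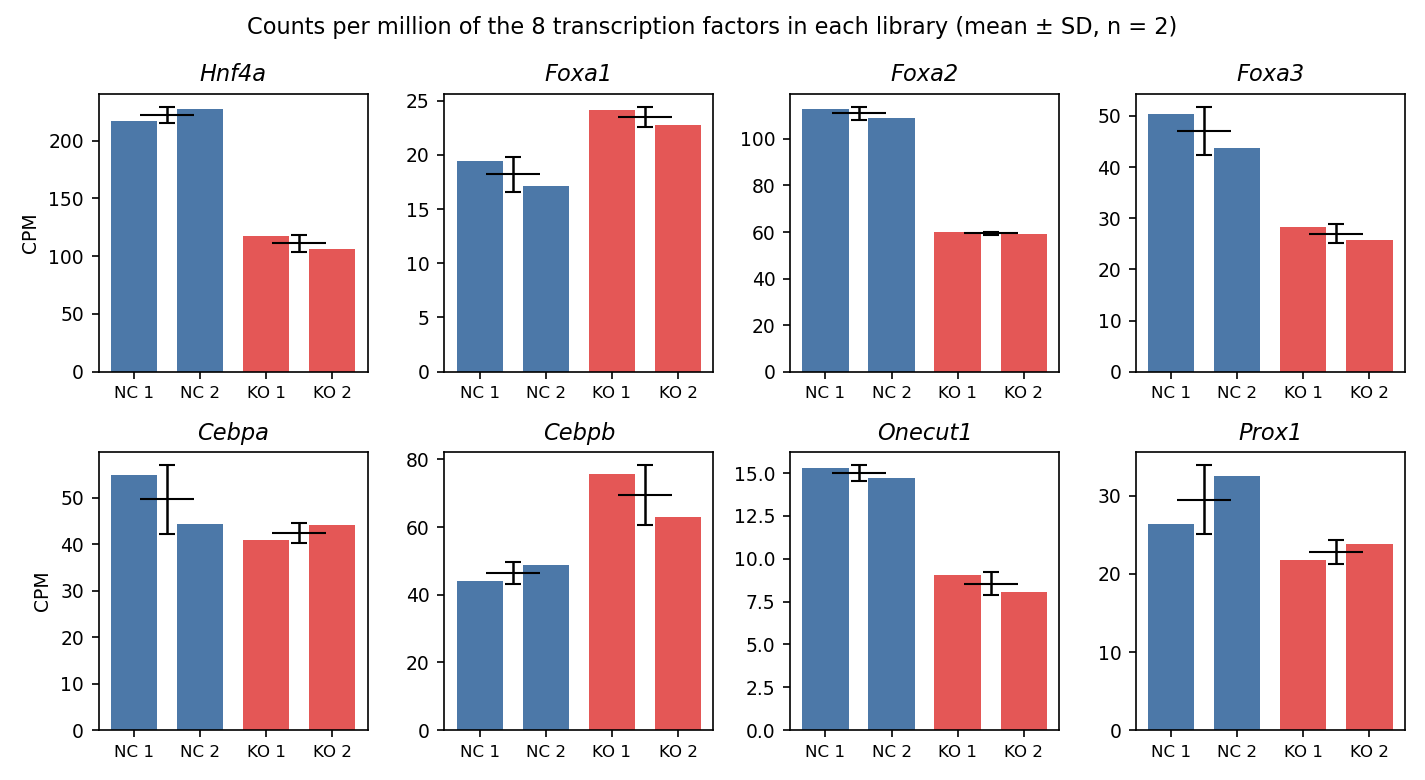
CPM of each factor (vertical axes, starting at 0 and scaled per gene) in the libraries NC 1, NC 2, KO 1 and KO 2, with the mean ± SD of each group (n = 2) in black. Hnf4a, Foxa2, Foxa3 and Onecut1 were clearly separated downwards in KO and Cebpb upwards, while the lowest NC value of Cebpa (44.4 CPM) nearly met its highest KO value (44 CPM).

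The liver character of the cells was read from defining hepatocyte markers. Alb, the serum albumin gene, was between 758 and 1151 CPM in all 4 libraries and Trf, the transferrin gene, between 381 and 564 CPM. Ttr, which encodes transthyretin and is among the most abundant mRNAs of normal liver, was counted 1 time in NC 1 and 1 time in KO 1, and 0 times in NC 2 and KO 2. Apoa1, an apolipoprotein gene, lay between 1.26 and 2.96 CPM. Of these markers Alb and Trf were abundant in every library, and Ttr and Apoa1 were at or near 0.

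Markers of other cell types were read beside them. Of 7 endothelial markers 6 were under the count filter, with Cdh5, Tek, Lyve1 and Clec4g at 0 counts, and the summed level of the list was between 0.15 and 0.48 TPM. Of 9 leukocyte markers 7 were under the filter. The T cell gene Cd3e was at 0 counts, and Ptprc, the pan-leukocyte CD45 gene, was counted 0 and 1 times in the NC libraries and 2 times in each KO library. The lysosomal gene Cd68 rose from 23.3 ± 1.59 to 53.7 ± 9.07 CPM (SD, n = 2), and the summed leukocyte list went from 25 and 29 TPM in NC to 57.5 and 69.7 TPM in KO. Cd68 alone was at 24 and 27.7 TPM in NC and 55.5 and 67.6 TPM in KO, so the sum mostly restates Cd68. Of 10 fibroblast and stellate markers 7 were under the filter, with Col3a1, Lum, Lrat and Reln at 0 counts, while Dcn was at 1468 to 1682 CPM in both groups and the summed list at 1033 and 1095 TPM in NC and 1234 and 1239 TPM in KO. Dcn alone gave 1032 and 1094 TPM in NC and 1228 and 1234 TPM in KO, nearly all of the summed list. Among that list Col1a1 (0.528 and 0.361 CPM in NC, 2.88 and 3.04 CPM in KO) and Des rose. The part of these genes in the changes of the lineage factors was not tested.

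Hnf4a had the largest change of the 8 factors. It lies on chromosome 2 from 163506808 to 163572910 on the plus strand (GRCm38, ENSMUSG00000017950.16) and has 5 annotated transcripts from a distal and a proximal start, the proximal one being the promoter used in adult hepatocytes. RSEM gave it 2464 and 3143 reads in the NC libraries against 1535 and 1433 in the KO libraries, or 217 and 227 CPM against 117 and 106 CPM. Both KO libraries were well below both NC libraries. The mean went from 222 ± 7.23 to 111 ± 7.37 CPM (SD, n = 2), a fall to 50.2% of the NC level (log2 fold change -1.0, SE 0.093, 95% interval -1.19 to -0.81, adjusted p = 4.27e-09). Among the 12510 genes, 1.37% fell further than Hnf4a. The antisense gene Hnf4aos, whose body overlaps the upstream part of Hnf4a, was nearly without reads, at 2 and 1 counts for NC and 1 in each KO library.

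The 250 bases upstream of the distal RefSeq start of Hnf4a, given 5′ to 3′ on the gene's strand from RefSeq on GRCm38.p6, are shown because they hold letters that match the motif of another factor of the 8. The window is chr2:163506607-163506856 on the plus strand. Capitals mark matches on either strand to the short motifs searched.
Hnf4a distal: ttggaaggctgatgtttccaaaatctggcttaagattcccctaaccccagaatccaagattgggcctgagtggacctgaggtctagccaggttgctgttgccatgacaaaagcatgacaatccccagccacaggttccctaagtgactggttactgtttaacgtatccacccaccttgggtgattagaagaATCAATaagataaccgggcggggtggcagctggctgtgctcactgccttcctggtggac
The capitals are 1 match to the ONECUT motif ATTGAT, read on the opposite strand. The window upstream of the proximal start, chr2:163546905-163547154, held 0 matches to that motif. Of 32851 upstream windows of the same length, 6.72% held the ONECUT letters. A match is a run of letters and not evidence of binding. The gene length that RSEM averaged over the Hnf4a transcripts was 2662 and 3010 bases in NC and 2717 bases in both KO libraries, so KO lay within the NC range.

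Foxa2 followed with a fall of nearly the same size. This forkhead gene lies on chromosome 2 from 148042877 to 148046969 on the minus strand (ENSMUSG00000037025.11). The NC libraries gave it 1280 and 1504 counts and the KO libraries 790 and 797, which is 113 and 109 CPM against 60 and 59 CPM. The libraries of each group were close together and the groups far apart. The KO mean was 53.8% of the NC mean (log2 fold change -0.89, SE 0.093, 95% interval -1.09 to -0.70, adjusted p = 3.06e-08), and 1.96% of all tested genes fell further.

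Foxa3, on chromosome 7 from 19013284 to 19023538 on the minus strand (ENSMUSG00000040891.6), is the third gene of the family, whose protein is also called HNF3 gamma. Its values were 50.4 and 43.8 CPM in NC and 28.3 and 25.7 CPM in KO. The lower NC library was still well above both KO libraries. Its KO mean was 57.5% of NC (log2 fold change -0.80, SE 0.11, adjusted p = 3.34e-06). Foxa3 has a single annotated transcript, so its average length, which enters its TPM, does not depend on how reads were divided among isoforms.

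Foxa1, on chromosome 12 from 57540628 to 57546916 on the minus strand (ENSMUSG00000035451.7), moved the other way to Foxa2 and Foxa3. It was at 19.4 and 17.1 CPM in NC and at 24.1 and 22.8 CPM in KO. The gap between the groups was small but free of overlap. The rise was 0.37 on the log2 scale (SE 0.13, 95% interval 0.095 to 0.64, adjusted p = 0.0299). The call did not hold with DESeq2 (adjusted p = 0.131), on the TPM scale (adjusted p from 0.126 to 0.214), without NC 2 (0.28, adjusted p = 0.208) or without KO 1 (0.33, adjusted p = 0.1).

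The windows upstream of the most distal of 3 RefSeq starts of Foxa2 and of the 1 start of Foxa1, the family members that went opposite ways, are shown for comparison, again as 250 bases on the gene's strand from RefSeq on GRCm38.p6. They are chr2:148046970-148047219 and chr12:57546112-57546361, both on the minus strand.
Foxa2: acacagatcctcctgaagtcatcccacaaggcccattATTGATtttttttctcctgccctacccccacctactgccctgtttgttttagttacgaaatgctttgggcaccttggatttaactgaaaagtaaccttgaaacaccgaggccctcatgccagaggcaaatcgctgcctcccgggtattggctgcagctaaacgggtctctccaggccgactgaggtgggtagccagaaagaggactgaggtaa
Foxa1: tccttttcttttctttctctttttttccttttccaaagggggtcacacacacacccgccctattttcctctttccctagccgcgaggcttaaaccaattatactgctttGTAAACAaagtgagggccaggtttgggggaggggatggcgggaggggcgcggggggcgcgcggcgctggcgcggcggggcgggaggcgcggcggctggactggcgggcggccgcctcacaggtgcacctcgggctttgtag
The capitals in the Foxa2 window are 1 match to the ONECUT motif ATTGAT. Those in the Foxa1 window are 1 match, on the opposite strand, to the FOXA motif TGTTTAC, which 3.17% of all windows held. Among the 12 upstream windows of the 8 factors, 1 held the FOXA motif, 2 the ONECUT motif and 1 the short SMAD motif CAGAC (42.2% of all windows). None of the 12 held the letters of HNF4 (CAAAGTCCA), C/EBP (TTGCNNAA or its palindrome TTGCGCAA, which is contained in it) or the SMAD palindrome GTCTAGAC, which were found in 0.384%, 9.56%, 0.164% and 0.167% of all windows. Both strands were searched. No match says only that these letters are not in these 250 bases.

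The summed FOXA level was lower in both KO libraries, and Foxa1 made up more of it. Summed over the 3 genes, the level was 155 and 147 TPM in NC and 89.7 and 91.5 TPM in KO. Foxa2 made up 76.3% and 77% of that sum in NC and 69% and 73.3% in KO, and Foxa1 went from 4.5% and 4.42% to 10.6% and 9.38%. The Foxa3 share did not separate the groups, at 19.2% and 18.6% in NC and 20.4% and 17.4% in KO. The log2 ratio of Foxa1 to Foxa2 was -4.08 and -4.12 in NC and -2.71 and -2.97 in KO. With 2 libraries a group, an exact permutation test of such a value cannot give a p below 0.333, so none was run. The sums, shares and ratios depend on the short average length of Foxa2, 1219 to 1365 bases against 2128 for its longest transcript. Rescaled to the longest transcript of each gene, mean NC levels were 63.9 TPM for Foxa2, 28.5 for Foxa3 and 6.72 for Foxa1. In KO they were 35.8, 17.1 and 9.03 TPM, so Foxa2 made up less of the sum on that scale.

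Cebpb had the larger of the 2 rises. It is a single-exon gene on chromosome 2 from 167688915 to 167690418 on the plus strand (ENSMUSG00000056501.3). The libraries held 44.2 and 48.8 CPM in NC and 75.7 and 63.1 CPM in KO. The KO libraries differed more from each other than the NC libraries did, and both were above NC. The KO mean of 69.4 ± 8.86 CPM was 1.49 times the NC mean of 46.5 ± 3.23 CPM (SD, n = 2; log2 fold change 0.57, SE 0.11, 95% interval 0.36 to 0.79, adjusted p = 0.000103).

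Cebpb was the only factor of the 8 whose expected counts were not whole numbers, which means that RSEM divided some of its reads with other genes. Of its 1504 exon bases, 312 also lie in exons of Tmem189 on the other strand. In NC 1, Cebpb had 502.52 and Tmem189 1602.48 counts, which sum to 2105.00. In the other libraries the sums became whole, within 0.01, once the neighbouring genes Gm20431 and Ube2v1 were added. The Cebpb total is therefore uncertain by the reads in that overlap, and Tmem189 itself had a log2 fold change of 0.14 (adjusted p = 0.221).

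Cebpa, on chromosome 7 from 35119293 to 35121928 on the plus strand (ENSMUSG00000034957.10), was at 54.8 and 44.4 CPM in NC and 40.9 and 44 CPM in KO. NC 1 stood above the other 3 libraries, which were alike. The log2 fold change was -0.22 (SE 0.11, 95% interval -0.44 to 0.0034, adjusted p = 0.113), so a fall of up to 0.44 or no change both lie within the interval. The result depended on the NC libraries. It was -0.37 without NC 2 (adjusted p = 0.0226) and -0.072 without NC 1 (adjusted p = 0.735).

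Cebpa has 2 annotated transcripts, of 2626 bases (Cebpa-201, a single exon) and 2161 bases (Cebpa-202, 2 exons), so the average length in each library gives the share that RSEM allotted to each. The shorter one took 29.5% and 20.9% of the Cebpa TPM in NC and 1.94% and 5.21% in KO. The single-exon transcript was at 18.3 and 17.2 TPM in NC and 19.6 and 19.6 TPM in KO. The difference in the gene total therefore lay in the allotment to the shorter transcript, which went from 7.65 and 4.53 TPM to 0.387 and 1.08 TPM. These are estimates from reads that both transcripts largely share, and their error is not in the files.

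The ratio of the C/EBP factors moved with these values. Cebpb exceeded Cebpa 1.43 and 1.99 times in NC and 3.48 and 2.69 times in KO, all on the TPM scale. Their sum was 63.1 and 64.9 TPM in NC and 89.5 and 76.2 TPM in KO. Both quantities were higher in the KO libraries than in either NC library.

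Onecut1, on chromosome 9 from 74861921 to 74891781 on the plus strand (ENSMUSG00000043013.10), was the scarcest factor in KO. The NC libraries gave it 174 and 203 counts and the KO libraries 119 and 109, or 15.3 and 14.7 CPM against 9.03 and 8.07 CPM. The groups were separate and the replicates close. Its KO mean was 57.1% of NC (log2 fold change -0.81, SE 0.16, 95% interval -1.14 to -0.48, adjusted p = 0.000262). Its relative Onecut2 was higher in KO, as given with the wider set of liver factors.

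Prox1, on chromosome 1 from 190118035 to 190170714 on the minus strand (ENSMUSG00000010175.13), had 26.4 and 32.6 CPM in NC and 21.8 and 23.9 CPM in KO. The NC libraries differed from each other by more than NC 1 differed from KO 2. The log2 fold change was -0.37 (SE 0.13, 95% interval -0.64 to -0.11, adjusted p = 0.0229). It lost its call with DESeq2 (adjusted p = 0.109), without NC 2 (-0.21, adjusted p = 0.342), without KO 1 (-0.31, adjusted p = 0.0923) and on the TPM scale (-0.13, adjusted p = 0.650). On that scale the NC libraries were at 3.66 and 5.06 TPM and the KO libraries at 3.62 and 4.08 TPM, which overlap. The average transcript length went from 7913 and 7450 bases in NC to 7214 and 6743 bases in KO, and a shorter length raises TPM for the same count.

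**Figure D2:**
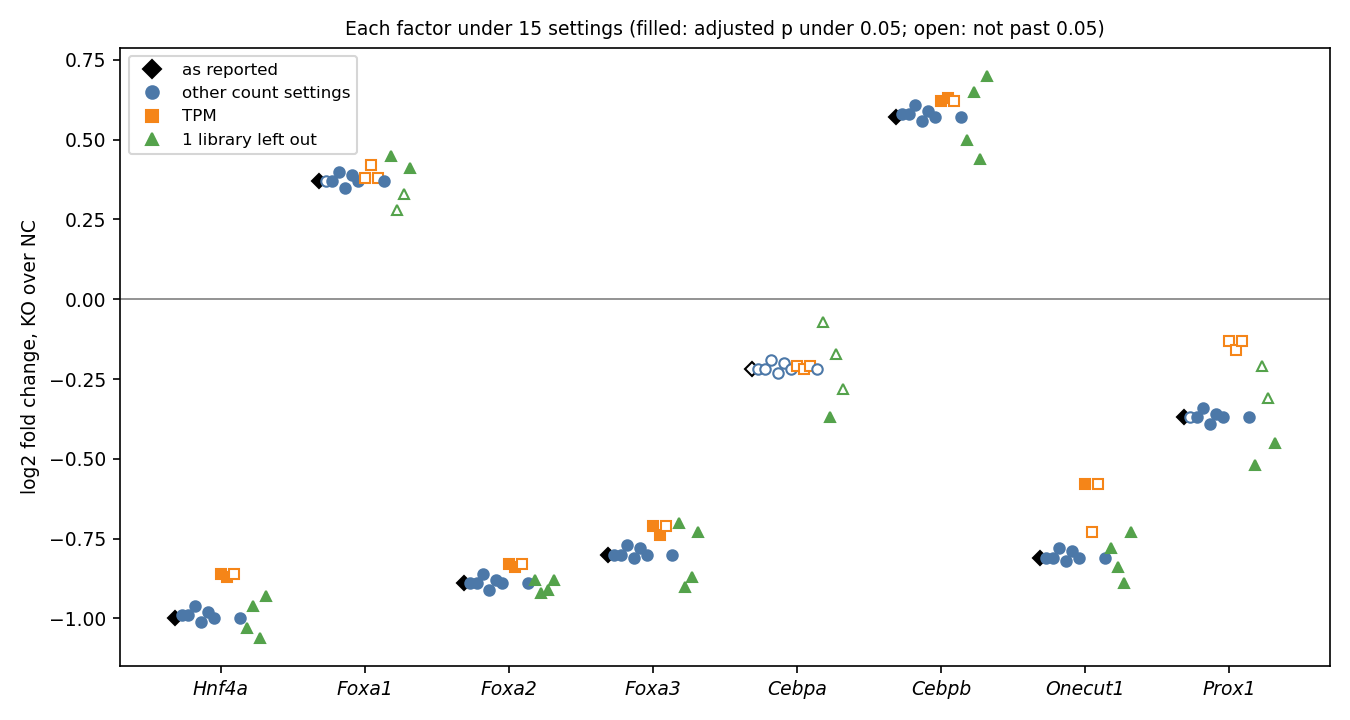
Log2 fold change of each factor (vertical axis, KO over NC) as reported and under 14 alternatives, with filled symbols where the adjusted p was under 0.05. All alternatives reuse the same libraries, whose groups did not overlap in CPM for any factor, so a kept sign adds little. No factor changed sign; Hnf4a stayed between -1.06 and -0.86 and Foxa2 between -0.92 and -0.83, while Foxa1 and Prox1 lost their call under 6 alternatives each and Cebpa passed under 1.

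Levels were compared between genes on the TPM scale. In NC the order of the mean levels was Foxa2 (116 ± 3.64 TPM, SD, n = 2), Hnf4a (93.3 ± 2.51), Cebpb (40.2 ± 4.29), Foxa3 (28.5 ± 1.82), Cebpa (23.8 ± 2.98), Foxa1 (6.72 ± 0.346), Onecut1 (4.39 ± 0.0212) and Prox1 (4.36 ± 0.990). Only the ranges of the last neighbours, Onecut1 and Prox1, overlapped. In KO the order of means was Foxa2 (64.5 ± 3.60 TPM), Cebpb (62.5 ± 9.91), Hnf4a (51.0 ± 4.94), Cebpa (20.3 ± 0.509), Foxa3 (17.1 ± 1.70), Foxa1 (9.03 ± 0.636), Prox1 (3.85 ± 0.325) and Onecut1 (2.62 ± 0.290). There the ranges of Foxa2 and Cebpb overlapped, and the other neighbours were separate. Cebpb thus passed Hnf4a in the order, Cebpa passed Foxa3 and Prox1 passed Onecut1.

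The place of Foxa2 rests on a short average length, between 1219 and 1365 bases against 2128 bases for its longest transcript. The level of Hnf4a likewise rests on average lengths of 2662 to 3010 bases, against 4362 bases for its longest transcript. Rescaled to the longest annotated transcript of each gene, a choice made after the data were seen, Foxa2 was at 63.9 TPM and Hnf4a at 58.7 TPM in NC. On that scale the KO order was led by Cebpb (62.5 TPM), with Foxa2 at 35.8 TPM and Hnf4a at 30.7 TPM. In NC all 8 ranks were the same on both scales, and in KO only Foxa2 and Cebpb changed places.

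**Figure D3:**
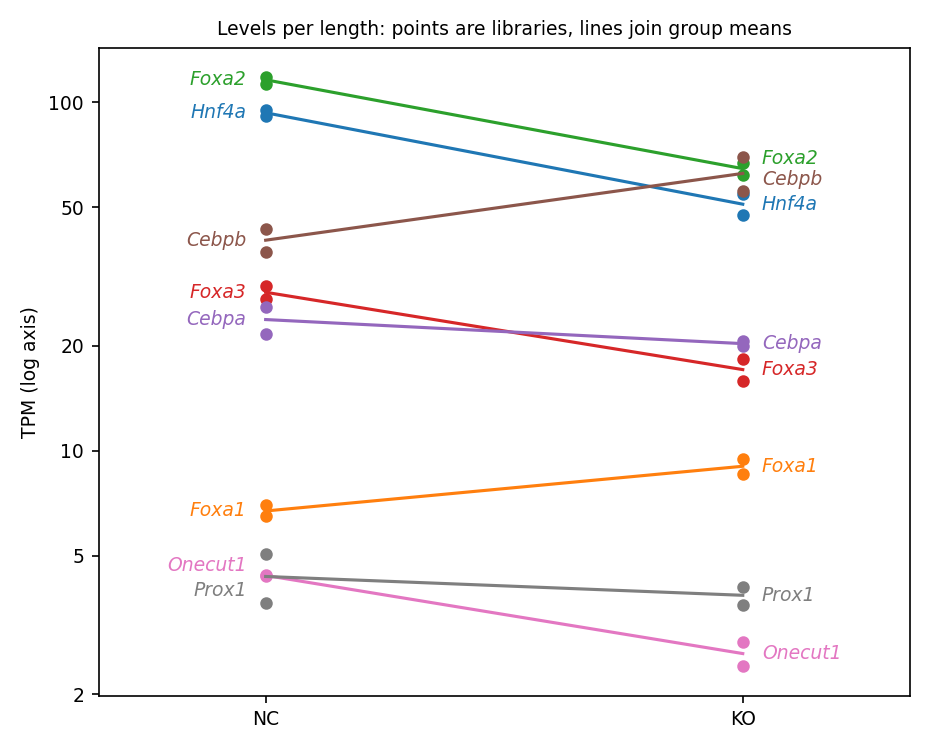
Level of each factor in TPM (log vertical axis) in NC and KO, with 1 point per library and lines joining the group means. The line of Cebpb, from 40.2 to 62.5 TPM, crosses that of Hnf4a, from 93.3 to 51 TPM, and Foxa1 is the other line that rises.

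The wider set of liver transcription factors was read from a list of 37 genes chosen from general knowledge. Of these 26 were tested, 4 were higher, 8 lower and 14 not past 0.05, so that 46.2% were called against 37.9% of all genes. Their median log2 fold change was -0.16, and it stayed negative under all 14 alternatives (-0.20 to -0.058). Hhex, a homeobox factor of early liver, fell by 0.55 on the log2 scale, from 85.1 and 86.7 CPM to 62.4 and 55.2 CPM.

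Other members of that list moved by as much as the core factors. Atf5, a bZIP factor abundant in liver, fell from 79.6 and 94.5 CPM to 48.0 and 43.1 CPM (log2 fold change -0.94). Zhx2, known as a repressor of Afp after birth, had a log2 fold change of -0.95, and Nr2f2, which encodes the orphan receptor COUP-TFII, one of -0.79. Onecut2 rose from 30.3 and 31.8 CPM to 53.0 and 63.1 CPM (log2 fold change 0.90, adjusted p = 3.22e-07), the opposite of Onecut1. Atf5 has exons that overlap those of Nup62 on the other strand, so its total is uncertain. A further 11 list members were under the filter, with at most 17 counts over all libraries.

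**Figure D4:**
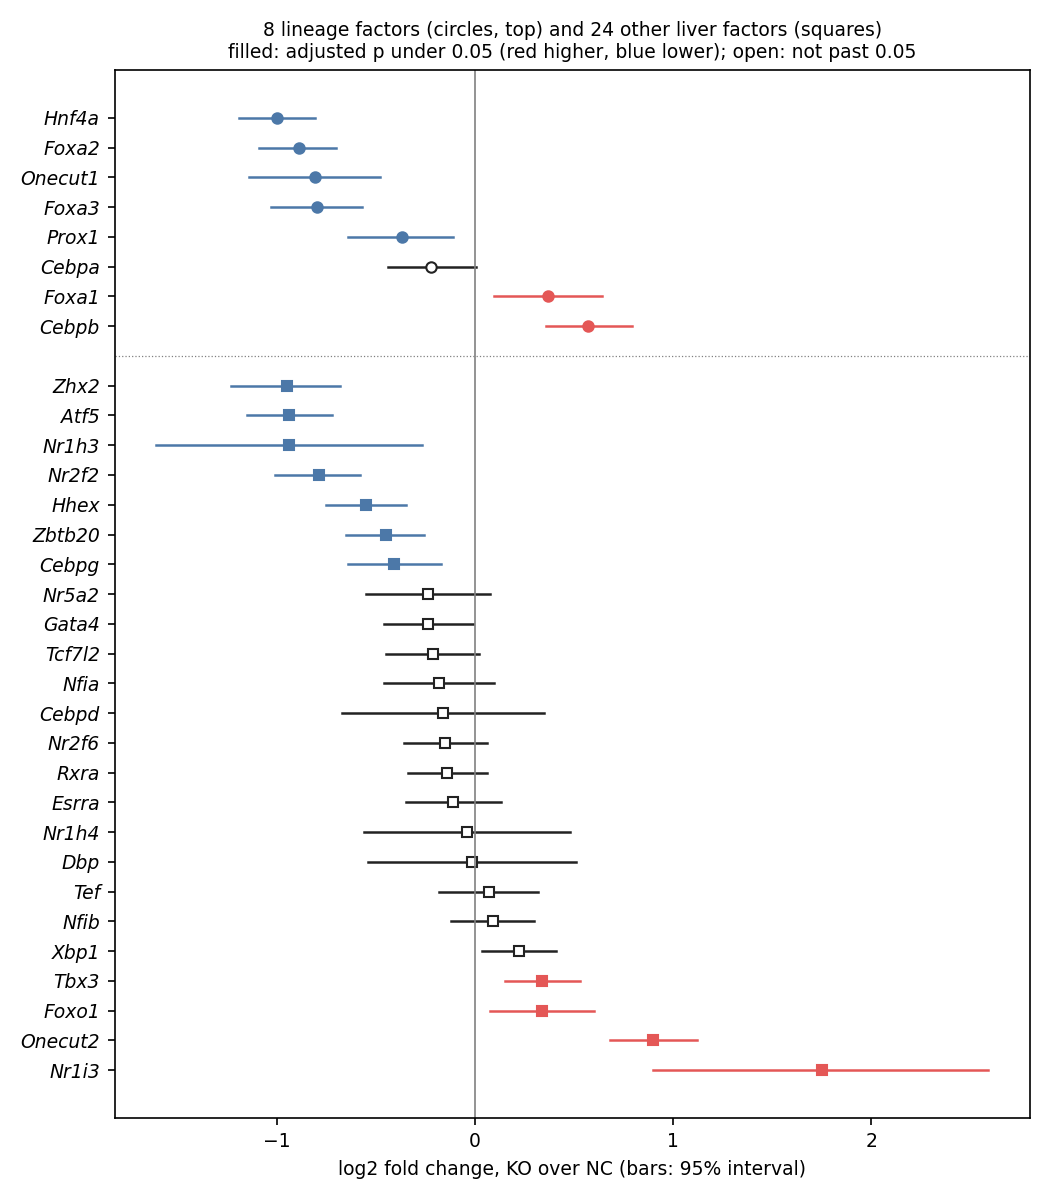
Log2 fold change (horizontal axis, KO over NC) with its 95% interval for the 8 lineage factors (circles) and 24 of the 26 tested genes of the wider list of liver factors (squares). Filled symbols passed an adjusted p of 0.05, red higher and blue lower; 5 lineage factors and 7 others are filled on the negative side.

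Genes known to depend on HNF4A were mostly at or near 0 counts in both groups. Of 32 listed, 23 were under the filter with at most 24 counts over all libraries, and 11 had no count in any, for instance Apoc3 and Cyp7a1, singled out after their values were seen. A count of 0 allows up to 3 counts, or 0.216 to 0.259 CPM, and covers counting error only. Of the 9 tested, 3 fell and 1 rose, or 44.4% called against 37.9% of all genes. Apoc2, an apolipoprotein gene, went from 74.2 and 63.4 CPM to 41.2 and 36.1 CPM (log2 fold change -0.83, SE 0.11, adjusted p = 8.26e-07), and it shares exons with the predicted gene Gm44805 on the same strand.

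Among the other HNF4A-dependent genes, Mttp, which loads lipid onto apolipoprotein B, had a log2 fold change of -0.48 (adjusted p = 0.00879), lost with DESeq2 (0.0592), without KO 2 (0.147) and on the TPM scale (adjusted p from 0.28 to 0.459). Nr1i3, the CAR receptor gene, rose from 1.58 and 0.578 CPM to 3.26 and 3.78 CPM and overlaps Tomm40l, which is transcribed the opposite way. For these 9 genes the median was -0.085, against -0.0037 for all genes, and its sign turned under 4 of 14 alternatives.

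Genes known to depend on C/EBP factors gave 6 tested of 21 listed, with 1 higher and 1 lower. That is 33.3% called, close to the 37.9% of all genes. Alb rose from 840 and 758 CPM to 965 and 1151 CPM (log2 fold change 0.41, SE 0.10, adjusted p = 0.00224). Trib1, a pseudokinase gene whose product promotes the breakdown of C/EBP alpha, fell from 363 and 401 CPM to 229 and 242 CPM (log2 fold change -0.70, SE 0.092). A further 15 genes of the list were under the filter, 12 of them at 0 counts in every library. The median of the 6 was 0.0008 and changed sign under 3 of 14 alternatives.

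FOXA-bound liver genes went both ways, with 3 higher and 2 lower among 8 tested of 14 listed (62.5% called, against 37.9% of all genes). Afp, the alpha-fetoprotein gene, fell from 281 and 254 CPM to 114 and 116 CPM (log2 fold change -1.21, SE 0.093, adjusted p = 1.01e-10). Igfbp1, an insulin-responsive binding protein gene of liver, fell by 0.54 on the log2 scale. Trf rose from 381 and 390 CPM to 554 and 564 CPM (log2 fold change 0.54, SE 0.091), as Alb did. The median of the 8 was 0.088 and turned negative under 2 of 14 alternatives.

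Biliary and progenitor genes were compared because bile duct cells and hepatocytes arise from a common precursor. The list also holds the mesenchymal genes Vim, Twist1, Snai1, Snai2, Zeb1 and Zeb2, so its counts and median do not describe biliary and progenitor genes alone. Of these mesenchymal genes Vim and Snai1 were called higher, Zeb1 and Zeb2 were not called, and Twist1 and Snai2 were at 0 counts. Of 25 listed, 20 were tested, 9 were higher and 3 lower (60% called, against 37.9% of all genes), with a median of 0.19 that stayed positive under all 14 alternatives (0.14 to 0.33). The bile duct keratin genes Krt7 and Krt19 rose from 58.7 and 60.9 to 103 and 99.9 CPM (log2 fold change 0.76) and from 35.2 and 34.2 to 59.2 and 55.6 CPM (0.73). Gpc3, an oncofetal glypican gene, rose from 21 and 17 counts to 131 and 141 (log2 fold change 2.74, adjusted p = 4.82e-09). Snai1, a repressor of epithelial genes, rose by 0.52 and Sox4 by 0.48 on the log2 scale.

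Not all genes of that list moved in one direction. Afp, which is also in this list, fell as given above. Sox9, the biliary lineage factor, singled out after its value was seen, fell from 95 and 112 CPM to 79.7 and 65 CPM (log2 fold change -0.52, adjusted p = 0.000313), and its call was lost on the TPM scale. Cd24a, a progenitor surface marker and the other lower gene, picked out in the same way, was at -0.24 on the log2 scale (adjusted p = 0.0434) and lost its call under 7 of 14 alternatives, such as scaling by library totals alone.

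**Figure D5:**
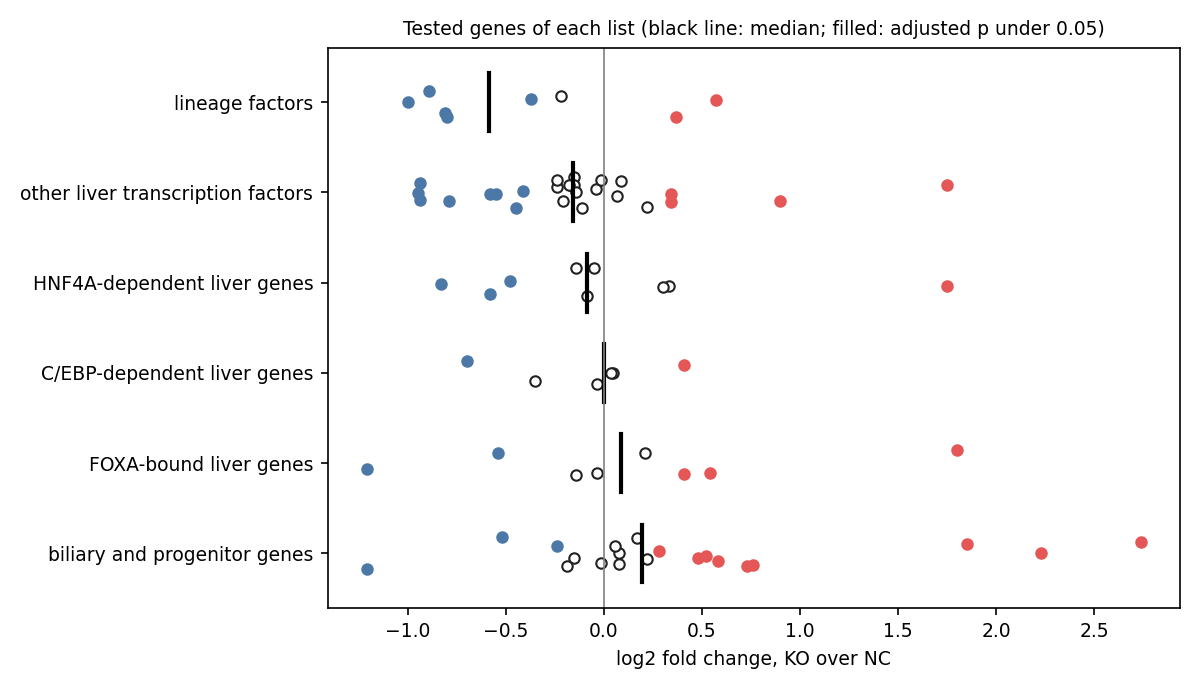
Log2 fold change (horizontal axis, KO over NC) of the tested genes in each list, 1 point per gene, filled where the adjusted p was under 0.05 (red higher, blue lower), with the median as a black line. The median is -0.59 for the 8 lineage factors, -0.16 for other liver factors and 0.19 for the biliary and progenitor list, which also holds mesenchymal genes.

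The surroundings of the 8 genes in the genome were read in the same fit. Within 100 kb of their starts lay 63 other genes, of which 21 were tested and 5 were called, 4 lower and 1 higher, which is a lower share than the 37.9% called over all genes. Irf2bp1, 19494 bases from the start of Foxa3, had a log2 fold change of -0.71 (adjusted p = 3.15e-06), and Fitm2, 34179 bases from that of Hnf4a, one of -0.56. Fam214a, 90963 bases from the start of Onecut1, rose by 1.09. Cebpg, a C/EBP family gene 62720 bases from Cebpa that is also in the wider list of liver factors, had a log2 fold change of -0.41 (adjusted p = 0.00666) and was picked after seeing its value. Its call was lost under 5 of 14 alternatives, namely without NC 2 (-0.34, adjusted p = 0.0686), without KO 1 (-0.32, adjusted p = 0.063) and in the 3 TPM settings (adjusted p from 0.307 to 0.38). Sympk, whose start is 839 bases from that of Foxa3 on the opposite strand and which was singled out after its value was seen, was at -0.16 (adjusted p = 0.183). No tested gene lay within the window around Foxa1, Foxa2 or Prox1. The chromosome medians were between -0.048 and 0.03 on the 5 chromosomes that carry the factors.

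Genes with the most similar profile over the 4 libraries were found by the Euclidean distance between log2 CPM values centred on their mean. The search was among genes whose mean log2 CPM was 3 or more, with predicted genes (Gm and Rik names) left out. The nearest to Hnf4a was Dusp6 (distance 0.042), to Foxa2 Notum (0.045) and to Foxa3 Apoc2 (0.052). Those nearest to Cebpb were Map3k4 (0.028) and Klf2 (0.045), to Onecut1 Slc25a32 (0.016), to Foxa1 Sesn1 (0.024), to Prox1 Phactr4 (0.032) and to Cebpa Etaa1 (0.030). With 4 libraries that differ mainly between the groups, such nearness mostly restates a similar fold change.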

How the data were processed

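Each file holds 1 row per gene for 1 library, with columns named as in an RSEM gene-level output. Read by those column names, the authors' deposited expected counts are RSEM's estimated reads per gene, not normalised. The authors' TPM values are, by the same reading, RSEM's abundances, scaled by effective length and library. The deposited gene length is averaged over a gene's transcripts by abundance. STAR, RSEM and the build GRCm38 are named in the submitters' processing notes. Versions, annotation release and strand setting are not given in the sources used here. The library kit is a directional one, per the labels' protocols. Even so, in NC 1 the counts of Cebpb and Tmem189, on opposite strands, were whole only as a sum. Overlaps between genes on opposite strands are therefore not taken as resolved.

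Expected counts were rounded, filtered with filterByExpr (12510 genes left) and tested across all genes with edgeR 4.0.16 in R 4.3.3 (glmQLFit, glmQLFTest, TMM, group as the only term). Totals were 11597923 to 13910582 counts, and 2 libraries a group limit the precision. The script was tested on simulated data. Adjusted p-values are Benjamini-Hochberg values, and intervals are 95%. Alternatives were DESeq2 1.42.0, limma 3.58.1 on log2 TPM, other scalings and filters, a replicate block and each library left out. Coordinates come from GENCODE M21 (54809 of 54838 IDs matched) and upstream windows from RefSeq, which had windows for 8 of the 8 genes. The factors, lists and tests were chosen with earlier results of these data known. Named genes are the 8 factors, Acvr2a, up to 6 called genes per list by lowest p, overlapping and neighbouring genes, and the nearest profiles; others are marked as singled out. A few list genes and 1 motif are not reported here.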

Additional observations from a re-analysis of the deposited data

How the results depend on the processing

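All 8 lineage factors kept their direction under all 14 alternatives. This adds little, because their groups did not overlap in CPM and every alternative reuses the same libraries. Hnf4a, Foxa2, Foxa3, Cebpb and Onecut1 passed 0.05 in each of the 11 alternatives on counts, with adjusted p up to 0.00421. On DESeq2 the factors called numbered 1 higher and 4 lower, and 3217 genes were called in all. On log2(TPM + 1) with the filter there were 2158 called genes, with 1 factor higher and 4 lower. On log2(TPM + 0.1) there were 2099, with 1 factor higher and 3 lower, Onecut1 being at an adjusted p of 0.0530. On log2(TPM + 1) without a filter limma called 0 genes, and so 0 factors higher and 0 lower, while 4501 genes and 6 of the factors had an unadjusted p under 0.05; Hnf4a was then at an adjusted p of 0.0804. Leaving out 1 library at a time gave 3507 to 4488 called genes, 1 to 2 factors higher and 4 to 5 lower; the lone library of an arm was assumed to vary like the others. The causes of these changes were not tested.

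The titles number the libraries of both groups 1 and 2, but nothing says that a number pairs them, and the deviations of NC 1 and KO 1 from their group means had a correlation of -0.0116 across genes. With the replicate block 5006 genes were called, again with 2 factors higher and 5 lower.

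The median of the HNF4A-dependent genes turned to 0.0096 and 0.0089 on filtered TPM, to 0.0015 on unfiltered TPM and to 0.032 without KO 2, and over the left-out libraries it reached -0.28. That of the C/EBP-dependent genes turned to -0.013 with the replicate block, -0.090 without NC 1 and -0.23 without KO 1, and reached 0.074 without KO 2. That of the FOXA-bound genes turned to -0.066 without the count filter and to -0.0026 without NC 1, and reached 0.31 without NC 2. The 40 other genes followed were those called in the lists or near the factors, with Acvr2a and Tmem189. Of these 40 genes 0 changed sign, which was largely fixed in advance, as most were picked for a change in these same libraries. Of their 557 values under the alternatives 95 lost a call, 33 of these on counts. Depth limits what can be said of genes at 0 counts and of genes at a few counts.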
